A study of Mus musculus with 12 samples.

Results

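Genes that mark the endothelium of blood and lymphatic vessels were followed in RNA-seq libraries of mouse ileal and colonic mucosa. The 8 genes were picked by symbol from 53715 gene rows: Pecam1, Cdh5, Kdr, Tek and Plvap for blood vessels, and Lyve1, Prox1 and Flt4 for lymphatic vessels. The 12 libraries fell into 4 groups of 3, ileum control, ileum KO, colon control and colon KO, each made from the mucosa of 1 mouse. All mice were on the C57BL/6J background and, by the study's account, were young adult males with no treatment described for these libraries. KO mice (Slc39a8-IEC KO) carried Slc39a8-fl/fl with Villin-Cre, in which the Villin promoter drives the recombinase in intestinal epithelial cells, so endothelial cells were not the cells targeted. Control libraries are labelled Slc39a8-fl/fl, although, by the study's methods, its control animals could also be wild-type, heterozygous floxed or Cre-only. The labels do not say whether an ileal and a colonic library came from the same mouse.

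Endothelial cells line every vessel. Blood endothelium of the intestinal villus is fenestrated and takes up absorbed nutrients, while the lymphatic lacteal in the villus core takes up dietary fat. Growth factors of the VEGF and angiopoietin families act on receptor tyrosine kinases of these cells: Kdr (VEGF receptor 2) is the main receptor of blood endothelium, Flt4 (VEGF receptor 3) that of lymphatic endothelium, and Tek (TIE2) binds the angiopoietins. Pecam1 and Cdh5 (VE-cadherin) hold endothelial cells together at their junctions, and Plvap forms the diaphragms of fenestrae. Prox1 is the transcription factor that sets lymphatic identity, and Lyve1 is a hyaluronan receptor of lymphatic capillaries. Some of these genes are not private to endothelium: macrophages also express Lyve1, platelets and leukocytes express Pecam1, and enteroendocrine and tuft cells express Prox1.

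Library totals ranged from 16749138 to 27903083 expected counts. The targeted gene, Slc39a8, which encodes a metal transporter, was measured at 8.39, 5.22 and 6.59 CPM (the usual counts-per-megacount unit, each library scaled by its TMM factor) in ileum control and at 4.35, 2.62 and 2.80 in ileum KO. In colon control it was at 20.8, 20.5 and 20.05 CPM, and in colon KO at 7.35, 11.5 and 7.93. KO libraries thus lay below control libraries in both tissues, with a log2 fold change of -1.13 (SE 0.17) over both tissues, an unadjusted p of 2.31e-05 and an adjusted p of 0.382 in edgeR's quasi-likelihood test. A pair of ileal libraries, ileum control 3 and ileum KO 1, stood apart from the other 4. Smooth muscle genes, represented by Acta2 at 7.14 and 4.89 CPM against 398 to 537, were nearly missing from them, and follicle B cell genes summed to 46.6 and 56.9 CPM against 4.19 to 8.22. Several results of the endothelial genes are given with and without this pair.

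The endothelial genes were weakly expressed, with 7 to 287 counts per gene and library, and all 8 passed the filter that kept 16558 genes for testing. On a scale of CPM per kilobase of exon, Plvap and Lyve1 held the first places in every group. In ileum control, Plvap averaged 3.02 ± 2.77 CPM per kilobase (SD, n = 3) and Lyve1 1.77 ± 0.33, and their ranges overlapped. Lyve1 lay above Pecam1, at 0.694 ± 0.279, in all 3 of these libraries without overlap. From Pecam1 down to Flt4, at 0.137 ± 0.077, each neighbour in the order overlapped with the next. In colon control, Lyve1 led at 2.82 ± 0.56 CPM per kilobase and did not overlap with Plvap at 1.28 ± 0.44, while Flt4, last of the 8 in ileum, took the fifth place at 0.453 ± 0.121. The last place in colon was held by Kdr, at 0.325 ± 0.171 CPM per kilobase in controls and 0.389 ± 0.076 in KO mice, with ranges that overlapped those of the gene before it.

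**Figure D1:**
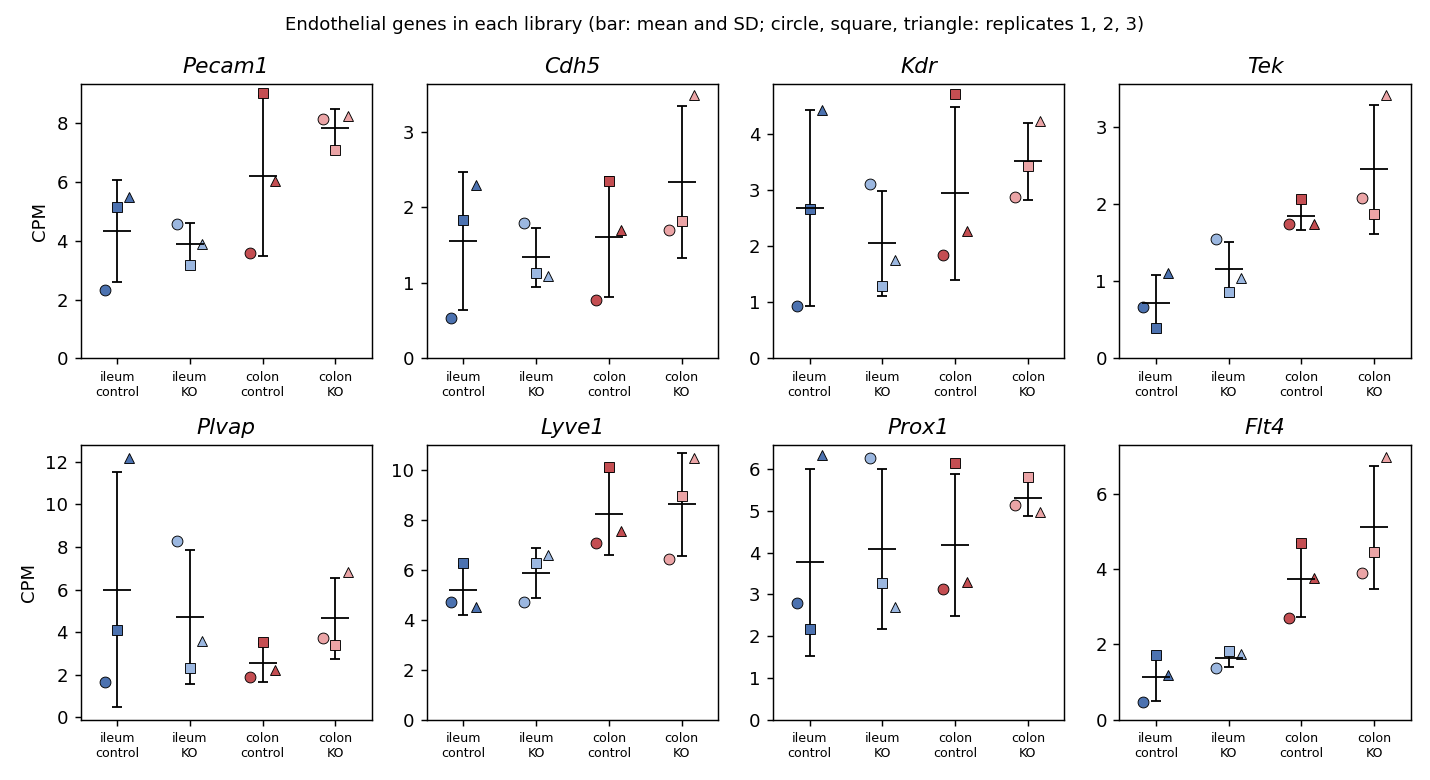
Level of each endothelial gene in every library, in CPM on a linear axis from 0, for the 4 groups. Points are libraries, with circle, square and triangle for replicates 1, 2 and 3, and bars are the mean and SD. Flt4 and Tek in colon lie above all ileal libraries, and Plvap in ileum is spread from 1.66 to 12.2.

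Flt4, Tek and Lyve1 were higher in colon than in ileum of control mice, and Flt4, Tek and Pecam1 in KO mice. In bulk mucosa, fewer endothelial cells and less RNA per endothelial cell cannot be told apart, and neither can more cells and more RNA per cell. Of the 8 genes, 3 passed an adjusted p of 0.1 in control mice, where 35.9% of all genes tested did (5940 of 16558) and 16.2% were called higher in colon. In KO mice 3 of 8 passed, against 37.1% of all genes (6149 of 16558), of which those higher in colon were 17.1% of genes tested. The share of the 8 that was called was thus close to that of all genes, and since each call was higher in colon, the share called in that direction was above that of all genes. None of the 8 was called lower in colon in either genotype with all libraries, though Plvap was in control mice without ileum control 1. The median log2 fold change of the 8 was 0.33 in control mice and 0.80 in KO mice, beside 0.02 and 0.01 over all genes. Of all calls, 45.3% were higher in colon in control mice and 46.1% in KO mice. Those shares were 55.2% and 58.3% with upper-quartile factors and 66.4% and 70.8% with library size alone, which moved the median of all genes to 0.12 and 0.14, and to 0.24 and 0.29.

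Flt4 (chr11:49609263-49652739, plus strand, GRCm38, GENCODE M21), the receptor for the lymphatic growth factors VEGF-C and VEGF-D, was measured at 0.47, 1.72 and 1.19 CPM in ileum control and at 1.37, 1.84 and 1.75 in ileum KO. Colon control libraries had 2.71, 4.70 and 3.77 CPM, and colon KO libraries 3.91, 4.45 and 6.97. Every colonic library lay above every ileal library. This held in the same direction for 13.4% of all genes tested and in either direction for 28.2%. The log2 fold change of colon over ileum was 1.71 (SE 0.43, adjusted p = 0.0113, edgeR) in control mice and 1.62 (SE 0.41, adjusted p = 0.0130) in KO mice. An exact permutation test of tissue within genotype on log2(CPM + 0.5) gave a two-sided p of 0.005, the smallest its 400 arrangements allow. It treats ileal and colonic libraries as independent. Without the pair of ileal libraries that stood apart, the log2 fold change of Flt4 was 1.72 in control mice and 1.52 in KO mice.

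Tek (chr4:94739289-94874976, plus strand), the angiopoietin receptor of blood endothelium, was measured at 0.67, 0.39 and 1.10 CPM in ileum control and at 1.55, 0.86 and 1.04 in ileum KO. In colon control it was at 1.74, 2.06 and 1.74 CPM, and in colon KO at 2.07, 1.86 and 3.40. The tissues did not overlap, as for Flt4. The log2 fold change was 1.33 (SE 0.42, adjusted p = 0.0351, edgeR) in control mice and 1.10 (SE 0.41, adjusted p = 0.0644) in KO mice, and the exact permutation p was 0.005. The Tek call was lost, at an adjusted p of 0.102 and 0.106, without ileum control 2 or colon control 2. In KO mice it was lost without ileum KO 2, ileum KO 3 or colon KO 3, at 0.183, 0.158 and 0.245, and without a filter on low counts, at 0.105. Without the ileal pair that stood apart, its log2 fold change was 1.80 in control mice and 1.38 in KO mice.

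Because Tek and Flt4 were the members whose tissues did not overlap, the promoter windows of RefSeq (GRCm38.p6, 250 bases before to 50 after a gene's start) were searched for motifs of factors known in endothelium. Windows were listed for 4 of the 8 genes: Kdr, Tek, Flt4 and Prox1, the last with 2. The Tek bases before the start, chr4:94739039-94739288 on the plus strand, are shown with the single match in capitals, an ATTGTT that is the reverse complement of the SOX motif AACAAT.
Tek: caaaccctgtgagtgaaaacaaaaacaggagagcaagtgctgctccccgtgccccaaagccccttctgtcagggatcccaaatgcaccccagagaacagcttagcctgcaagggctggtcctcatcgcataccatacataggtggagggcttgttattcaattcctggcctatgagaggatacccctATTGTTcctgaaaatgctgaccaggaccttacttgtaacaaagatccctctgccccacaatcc
A match to the GATA motif AGATAA lay after the Tek start. Neither these nor the ETS motif AGGAAG, on either strand, was found in the Kdr, Flt4 and Prox1 windows. Over 32851 promoter windows of the same length, AACAAT was present in 10.7%, AGATAA in 11.2% and AGGAAG in 35.4%. The matches are descriptions of letters only.

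Lyve1 (chr7:110850607-110863239, minus strand) was measured at 4.73, 6.28 and 4.50 CPM in ileum control and at 4.71, 6.25 and 6.58 in ileum KO. In colon control it was at 7.07, 10.1 and 7.53 CPM, and in colon KO at 6.41, 8.96 and 10.5. Tissues did not overlap in control mice and overlapped in KO mice. The log2 fold change was 0.67 (SE 0.25, adjusted p = 0.0658, edgeR) in control mice and 0.56 (SE 0.25, adjusted p = 0.117) in KO mice, with an exact permutation p of 0.01 over both genotypes. Its call in control mice was lost without any of ileum control 1, ileum control 3, colon control 2 or colon control 3, at adjusted p values of 0.136, 0.152, 0.236 and 0.103. It was lost as well without a filter on low counts (0.120), with the 6 control libraries fitted alone (0.125) and without the ileal pair that stood apart (0.105). In KO mice Lyve1 was called with upper-quartile factors (adjusted p = 0.0706) and library size alone (0.0318), and without ileum control 3 (0.0940) or colon KO 1 (0.0648), so its call in 1 genotype alone depended on these settings. Of 7 macrophage genes, which mark another source of Lyve1, Csf1r alone was called, lower in colon. That call held under 1 of 4 scalings in control mice and 2 of 4 in KO mice. The list did not move in 1 direction: 1 of the 7 had a positive log2 fold change in control mice and 3 in KO mice. Cd163 averaged 1.11 CPM in ileum control and 2.56 in colon control, and 1.16 and 2.855 in KO mice, and was not called. The 7 summed to 44.1 to 117 CPM in the 6 ileal and 37.0 to 84.6 in the 6 colonic libraries, and the part of macrophages in the Lyve1 values was not tested.

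Pecam1 (chr11:106654217-106750628, minus strand) was measured at 2.33, 5.17 and 5.48 CPM in ileum control and at 4.59, 3.17 and 3.88 in ileum KO. In colon control it was at 3.58, 9.02 and 6.03 CPM, and in colon KO at 8.15, 7.10 and 8.26. Only in KO mice did the tissues not overlap, with an exact permutation p of 0.1 there, the smallest that 20 arrangements allow. The share of all genes without overlap within 1 genotype was not counted. The log2 fold change was 1.02 (SE 0.37, adjusted p = 0.0591, edgeR) in KO mice and 0.52 (SE 0.37, adjusted p = 0.323) in control mice. The difference between the genotypes, 0.50 (SE 0.52), had an adjusted p of 1.0, so an unequal tissue difference was not shown. The Pecam1 call was lost without any 1 of ileum KO 2, ileum KO 3, colon KO 1, colon KO 2 and colon KO 3, with adjusted p values between 0.103 and 0.162.

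Cdh5 (chr8:104101625-104144511, plus strand) was measured at 0.53, 1.83 and 2.29 CPM in ileum control, 1.79, 1.13 and 1.09 in ileum KO, 0.77, 2.35 and 1.69 in colon control and 1.70, 1.81 and 3.49 in colon KO. Kdr (chr5:75932827-75978458, minus strand) was at 0.93, 2.67 and 4.42 CPM in ileum control, 3.10, 1.29 and 1.75 in ileum KO, 1.84, 4.70 and 2.26 in colon control and 2.87, 3.42 and 4.23 in colon KO. Groups overlapped for both genes. Their log2 fold changes between tissues in control mice were 0.03 (SE 0.55) for Cdh5 and 0.12 (SE 0.54) for Kdr. Over the alternatives, which include leaving out the ileal pair, they ranged from -0.37 to 0.41 and from -0.42 to 0.68. In KO mice the log2 fold changes were 0.81 (SE 0.55) and 0.79 (SE 0.54), with adjusted p values of 0.295 and 0.302 in edgeR.

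Prox1 (chr1:190118035-190170714, minus strand) was measured at 2.80, 2.17 and 6.33 CPM in ileum control and at 6.26, 3.28 and 2.70 in ileum KO. Its levels in colon control were 3.12, 6.14 and 3.30 CPM, and in colon KO 5.14, 5.80 and 4.98. The tissues overlapped, and the log2 fold change was 0.14 (SE 0.44) in control mice and 0.38 (SE 0.44) in KO mice. Without the ileal pair that stood apart, it was 0.74 (adjusted p = 0.0992, edgeR) and 0.83 (adjusted p = 0.0564, edgeR). The exact permutation p over both genotypes went from 0.315 to 0.01, the smallest that 100 arrangements allow. The pair held the highest ileal Prox1 levels, so leaving it out raises colon over ileum. Genes of enteroendocrine and tuft cells, which also express Prox1, summed to 75.2 to 213 CPM in the 6 ileal libraries and 316 to 504 in the 6 colonic ones. Of the 7 genes on that list, 2 were called higher in colon in control mice and 3 in KO mice, led by Chga at 2.25 and 2.23 on the log2 scale. Their part in the Prox1 values was not tested.

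Plvap (chr8:71497765-71511752, minus strand) was the member with the widest spread. It was measured at 1.66, 4.11 and 12.2 CPM in ileum control and at 8.29, 2.31 and 3.60 in ileum KO. Colon control libraries had 1.89, 3.55 and 2.21 CPM, and colon KO libraries 3.72, 3.42 and 6.85. The log2 fold change between tissues was -1.24 (SE 0.66, adjusted p = 0.190, edgeR) in control mice and -0.01 (SE 0.65) in KO mice. These values rested on the ileal pair that stood apart: without it they were -0.20 and 0.68. Without ileum control 1, in turn, Plvap was called lower in colon of control mice, at -1.68 (adjusted p = 0.0613, edgeR).

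**Figure D2:**
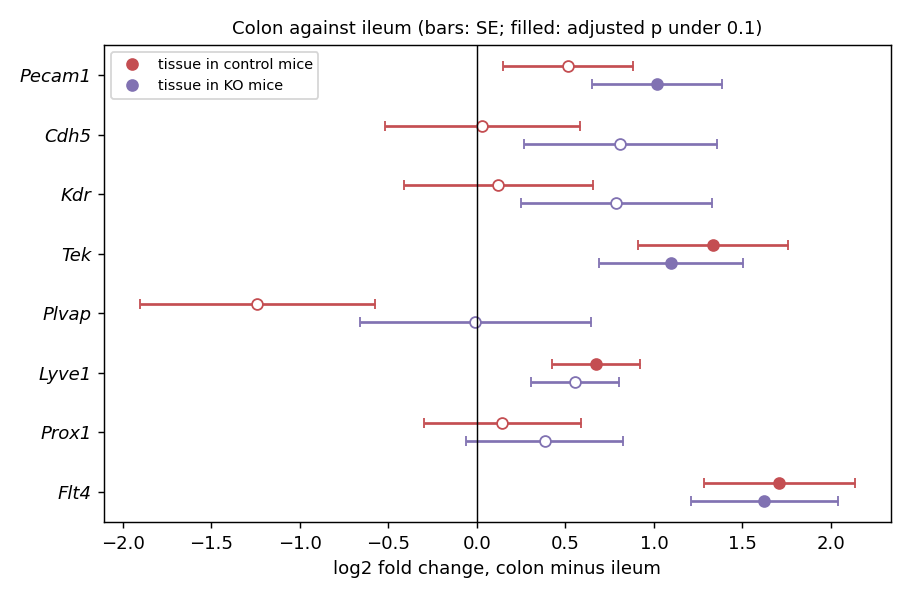
Log2 fold change of colon over ileum for each endothelial gene in control and in KO mice, with bars for the SE. Filled points passed an adjusted p of 0.1 in edgeR: Flt4 and Tek in both genotypes, Lyve1 in control mice and Pecam1 in KO mice.

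Leaving out ileum control 3 and ileum KO 1 together kept 3 members called in control mice, where Prox1 took the place of Lyve1, and called 5 in KO mice, namely Pecam1, Kdr, Tek, Prox1 and Flt4. All of these were higher in colon. Under this setting 42.6% of all genes tested were called in control mice (7061 of 16558) and 44% in KO mice (7283 of 16558). Both shares were above those with all libraries. In KO mice the added calls were Kdr, at a log2 fold change of 1.22 (adjusted p = 0.0680, edgeR), and Prox1. For both genes the libraries left out were the highest ileal ones, so leaving them out raises colon over ileum.

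The ratio of each member to Cdh5, the junction gene most restricted to endothelium, was compared within libraries to describe unequal change among the members. It was taken as log2 of (CPM + 0.5) over (Cdh5 CPM + 0.5). For Flt4 the ratio was between -0.73 and 0.52 in the 6 ileal libraries and between 0.87 and 1.34 in the 6 colonic ones, with a difference of 1.06 and an exact permutation p of 0.005. Without the ileal pair that stood apart the difference was 0.82, with an exact permutation p of 0.01, the smallest that 100 arrangements allow. For Plvap the ratio was lower in colon, with a mean of 0.72 ± 0.26 (SD, n = 6) against 1.39 ± 0.56 in ileum, a difference of -0.67 and an exact permutation p of 0.03, which without the ileal pair was -0.33 (exact permutation p = 0.11). The Pecam1 ratio was higher in colon by 0.37 (exact permutation p = 0.04), which without a pseudocount was 0.32 (p = 0.16, exact permutation) and without the ileal pair 0.30 (exact permutation p = 0.13). Ratios of Kdr, Tek, Lyve1 and Prox1 had exact permutation p values between 0.075 and 0.94. These p values are raw values from 7 ratios, and each ratio shares the Cdh5 values, which come from as few as 8 counts.

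**Figure D3:**
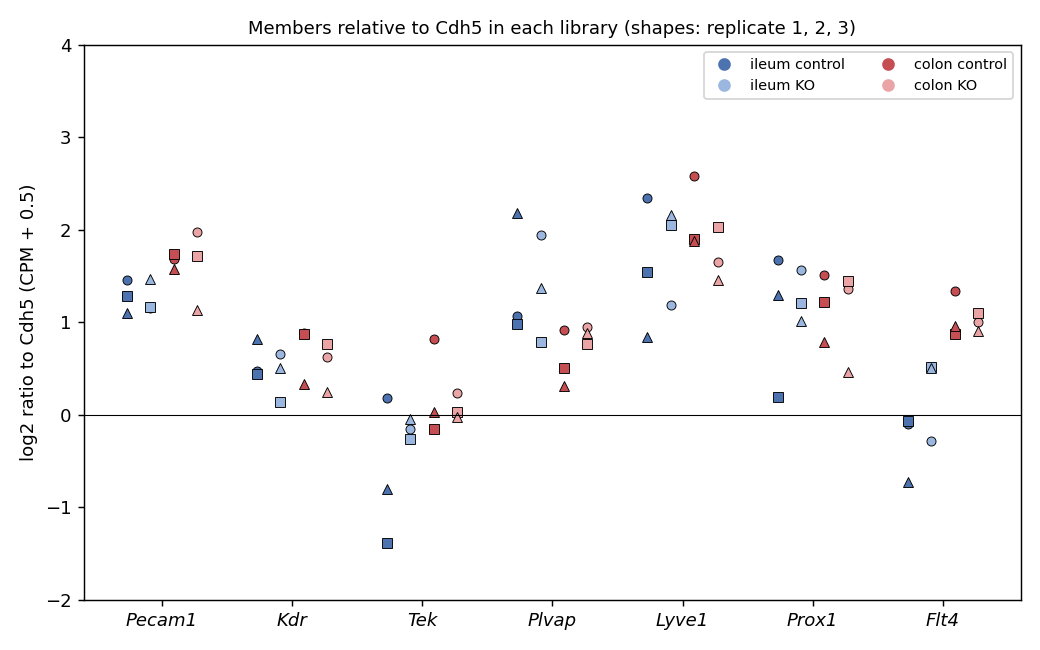
Log2 ratio of each other member to Cdh5 in every library, with a pseudocount of 0.5 CPM. Colours are the 4 groups and shapes the replicates. The Flt4 ratio is above 0.86 in all 6 colonic libraries and at most 0.52 in the 6 ileal ones, while the highest Plvap ratios are those of ileum control 3 and ileum KO 1.

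Loss of Slc39a8 in the epithelium was compared next. No endothelial gene was called between KO and control mice in ileum, in colon, over both tissues or in the difference between tissues. In each of these 4 comparisons 0% of all genes were called by edgeR, which is the background for the 0 of 8 members. The uncalled genes included the deleted Slc39a8, at an adjusted p of 0.382 over both tissues in edgeR, a gene the study called with DESeq2. Over both tissues 641 genes had an unadjusted p under 0.05, with 252 in ileum, 385 in colon and 169 for the difference between tissues. DESeq2 called 4, 2, 0 and 1 genes in these comparisons and limma-voom 1, 1, 0 and 0, none of them a member. Without the ileal pair, edgeR called 3, 3, 0 and 0 genes. DESeq2 without it, an alternative chosen after seeing the data, called 161, 26, 23 and 3, again no member. With 3 libraries a group, the smallest exact p within 1 tissue is 0.1, and SEs of 0.17 to 0.48 on the log2 scale over both tissues limit what could be detected.

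Over both tissues the log2 fold changes of KO over control ranged from -0.07 (SE 0.37) for Kdr to 0.51 (SE 0.28) for Tek, with 7 of 8 above 0. Tek had an unadjusted p of 0.0888 and Flt4, at 0.50 (SE 0.28), one of 0.0979, and all 8 had an adjusted p of 0.998 in edgeR. Exact permutation of genotype within tissue gave p = 0.07 for Tek, 0.085 for Flt4 and 0.415 to 0.895 for the other 6. The Kdr direction was opposite, at 0.02 to 0.07, under limma-voom, the replicate block and without the ileal pair.

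In ileum, 4 of 8 members had a positive log2 fold change, from -0.41 (SE 0.54) for Kdr to 0.64 (SE 0.43) for Tek, and their median was -0.03 beside -0.002 for all genes. In colon, all 8 were positive, from 0.06 (SE 0.25) for Lyve1 to 0.87 (SE 0.66) for Plvap, and their median was 0.37 beside 0.005. Control and KO libraries overlapped for every member in both tissues, whereas 3.7% of genes tested did not overlap between the ileal groups and 12.8% between the colonic groups. The difference of the genotype effect between tissues ran from -0.24 (SE 0.58) for Tek to 1.23 (SE 0.93) for Plvap, with adjusted p values of 1.0 in edgeR. Plvap in ileum, at -0.36 (SE 0.65), was at 0.70 without ileum control 3 and at -1.07 without ileum KO 1. Without both libraries it was at 0.0017.

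**Figure D4:**
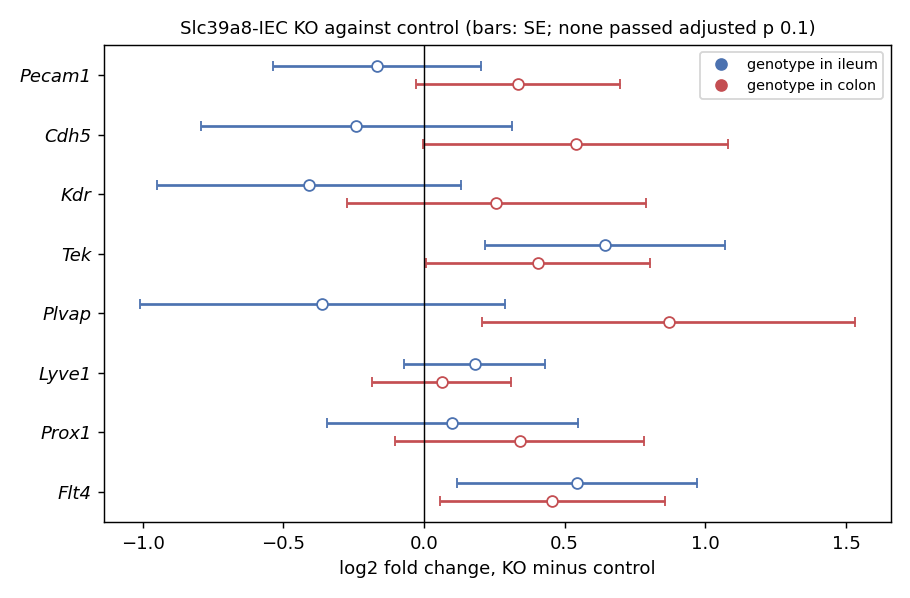
Log2 fold change of Slc39a8-IEC KO over control for each endothelial gene in ileum and in colon, with bars for the SE. Open points mark that none passed an adjusted p of 0.1 in edgeR. Points in colon run from 0.06 to 0.87 and those in ileum from -0.41 to 0.64.

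The members did not move together in the ileal pair that stood apart. Ileum control 3 and ileum KO 1 both lay above the other 4 ileal libraries for Plvap, Kdr, Tek and Prox1, with means 3.51, 2.27, 1.80 and 2.30 times those of the other 4. Both lay below for Lyve1, at 0.773 times, and overlapped for Pecam1, Cdh5 and Flt4. Of all genes tested, 23.2% had both libraries above and 27.2% both below, so the share of members above exceeded the background as a description and was given no test. Angpt2, the ligand that competes at Tek, was at 2.25 and 2.21 CPM in the pair against 0.20 to 0.66 in the others. Unlike Prox1, a list of 9 further lymphatic genes was lower, summing to 20.5 and 17.5 CPM against 40.5 to 53.5. Within that list Mmrn1 overlapped, at 5.78 and 3.22 against 4.22 to 6.66.

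Other cell type lists moved with that pair. Mural cell genes, whose cells wrap small vessels, summed to 12.8 CPM in ileum control 3 and 10.9 in ileum KO 1 against 220 to 344 in the others. Most of this sum was Rgs5, at 4.08 and 2.21 against 183 to 307. Cspg4, Abcc9 and Kcnj8 lay below the others too. Pdgfrb, at 4.29 and 4.53 against 3.53 to 6.11, and Notch3, at 0.38 and 0.24 against 0.07 to 0.56, overlapped with them. Fibroblast genes summed to 43.3 and 40.8 CPM against 313 to 599, and macrophage genes to 47.9 and 44.1 against 83.2 to 117. Enteroendocrine and tuft cell genes summed to 213 and 187 CPM against 75.2 to 87.8, and the epithelial list was at 0.88 and 0.96 times the median of the others. The part of these cells in the endothelial values was not tested.

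**Figure D5:**
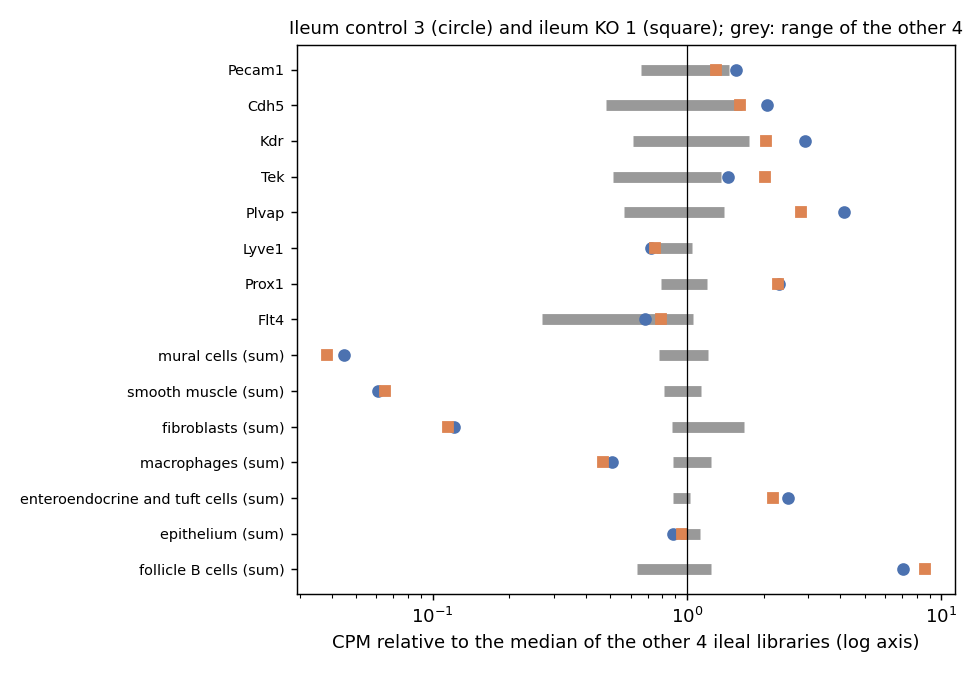
Ileum control 3 (circles) and ileum KO 1 (squares) relative to the median of the other 4 ileal libraries, on a log axis, for the endothelial genes and for summed cell type lists. Grey bars are the range of the other 4. Plvap lies at 4.13 and 2.81 times the median while the mural sum lies at 0.045 and 0.038 times.

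Further vessel genes were read from 5 lists, the members' own counts being given above. Of all genes tested, 35.9% were called between tissues in control mice and 16.2% were called higher in colon. In KO mice these shares were 37.1% and 17.1%. The list counts that follow are descriptions to be read beside these shares, and no list was tested as a set. Among 12 receptors and co-receptors, 3 were called higher and 1 lower in colon of control mice, and 4 higher in KO mice. Calcrl, which pairs with Ramp2 as the adrenomedullin receptor, was at 2.83 ± 0.83 CPM (SD, n = 3) in ileum control and 8.67 ± 1.09 in colon control, a log2 fold change of 1.62 (SE 0.31, adjusted p = 0.00241, edgeR). The neuropilins, co-receptors of the VEGF receptors, were also higher: Nrp1 by 0.83 (SE 0.30) and Nrp2 by 1.42 (SE 0.59), or 0.94 without the ileal pair. Tie1, the orphan partner of Tek, was lower by -1.23 (SE 0.41, adjusted p = 0.0423) in control mice, opposite to Tek, and was called under 3 of 4 scalings.

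Of 11 ligands, Gdf2 and Bmp10 were at 0 counts in all 12 libraries, which allows up to 3 counts in each, and 9 were tested. Angpt1, the activating ligand of Tek, was higher in colon by 2.36 (SE 0.84, adjusted p = 0.0567, edgeR) in control mice, and by 1.70 without the ileal pair. In KO mice it averaged 0.65 CPM in ileum and 1.75 in colon and was not called. Apln, the apelin precursor, was lower at -2.57 (SE 0.82, adjusted p = 0.0362) in control mice and -1.84 (SE 0.76, adjusted p = 0.0917) in KO mice, the latter being called under 2 of 4 scalings and not without the ileal pair, at -1.56 (adjusted p = 0.140). No other ligand was called between tissues. Angpt1 had 0 to 10 counts per library in ileum control, and Apln had 0 to 9 in colon control and 3 to 14 in colon KO.

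Among 18 pan-endothelial genes, 16 were tested, with 2 called higher in colon of control mice, 4 in KO mice and none lower. Clec14a, an endothelial surface lectin, was at 1.69 ± 0.59 CPM (SD, n = 3) in ileum control and 27.7 ± 4.2 in colon control, a log2 fold change of 4.02 (SE 0.27, adjusted p = 1.14e-06, edgeR), and at 2.08 ± 0.50 and 22.4 ± 1.6 CPM in KO mice. Every colonic library was above every ileal library by a wide margin, unlike Cdh5, which averaged 1.55 CPM in ileum control and 1.60 in colon control. Which cells gave the Clec14a values was not tested. Cldn5, a tight junction gene, was higher by 1.45 (SE 0.43) in control mice and 1.79 (SE 0.42) in KO mice. In KO mice, Sox18 and Erg, transcription factors of endothelium, were called higher too, at 1.56 (SE 0.54) and 1.60 (SE 0.58).

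Of 14 arterial, venous and leukocyte-recruiting genes, 11 were tested, with 1 called higher and 1 lower in each genotype. Efnb2, the arterial ephrin, was higher by 0.77 (SE 0.29) in control mice, at 56.7 ± 19.4 CPM (SD, n = 3) in ileum and 96.5 ± 27.2 in colon. Cdh5 averaged 1.55 and 1.60 CPM in these groups, and the cells that gave the Efnb2 values were not tested. In KO mice Efnb2 averaged 61.4 CPM in ileum and 86.3 in colon and was not called. Dll4, a Notch ligand of arterial and tip cells that secretory epithelium also makes, was lower at -2.21 (SE 0.29, adjusted p = 0.000179, edgeR) in control mice and -1.72 (SE 0.28) in KO mice. Ackr1, a marker of venules, was higher by 2.86 (SE 0.68, adjusted p = 0.00857) in KO mice and was not called in control mice. It rested on few counts, with 1 to 3 per library in ileum KO and 11 to 17 in colon KO.

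Of 9 further lymphatic genes, 7 were tested, with 2 called higher in colon of control mice and 4 in KO mice, and none lower. Their median log2 fold change was 0.86 and 1.40, beside 0.02 and 0.01 for all genes. Reln was at 2.27 ± 0.39 CPM (SD, n = 3) in ileum control and 5.21 ± 2.37 in colon control, higher by 1.20 (SE 0.33), and Mmrn1, a secreted protein of lymphatic endothelium, by 1.17 (SE 0.35). In KO mice, Ccl21a, the chemokine that draws dendritic cells into lymphatics, was higher by 1.78 (SE 0.53) and Sema3a by 1.73 (SE 0.69). Without the ileal pair these were 1.39 and 1.31. No gene of these 5 lists was called between genotypes.

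Cell type lists that shift between tissues stand beside these values. In colon the 6 epithelial genes summed to 7093 to 8061 CPM against 13440 to 17040 in ileum, and 5 of 6 were called lower in each genotype while Cdx1 was called higher, by 0.59 and 0.65 on the log2 scale. The smooth muscle sum was 170 to 3184 CPM in ileum and 2922 to 4518 in colon, with none of 8 genes called, and fibroblasts were at 40.8 to 599 and 289 to 589. Of the 6 mural genes tested, 1 (Notch3) was called higher in colon, in KO mice. Blood cell genes summed to 21.2 to 88.6 CPM in ileum and 25.4 to 290 in colon with none called, and follicle B cell genes had 1 called lower in colon of control mice and 2 in KO mice, of which Cd79a was not called without the ileal pair (adjusted p = 0.206, edgeR). Their part in the endothelial values was not tested.

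Genes whose pattern over the 12 libraries lay nearest to the members were found by the mean absolute difference of centred log2 CPM, over 16550 genes that are not members. For the blood vessel members, Ephb4, at 0.167, and Surf6, at 0.187, were among the nearest, beside a median of 0.613 over all genes. For the lymphatic members they were Hoxb8, at 0.153, Fam57a, at 0.155, and Pkdcc, at 0.160, beside a median of 0.570. Members themselves lay at 0.176 (Kdr) to 0.435 (Plvap) from the blood vessel profile and at 0.246 (Lyve1) to 0.4002 (Flt4) from the lymphatic one, which they helped to form.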

How the data were processed

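RNA of ileal or colonic mucosa was reverse transcribed with an oligo-dT primer and sequenced. The authors deposited an expected count per gene and library, made per the labels from reads aligned with STAR to mm10. The study's reporting summary names uniquely mapped reads, UMI-tools and FeatureCounts, while the values are not all whole, so whether FeatureCounts made this table is unclear. Of these values 93.67% were whole, and 92 spike-in rows were all at 0. Counts were rounded, and 53620 of 53715 rows were named by GENCODE M21 on the unversioned ID. Genes kept by filterByExpr (16558) were tested with edgeR 4.0.16 (quasi-likelihood, TMM factors, Benjamini-Hochberg over all genes, threshold 0.1), with tissue as a term or in a model of the 4 groups. DESeq2 1.42.0, limma-voom (limma 3.58.1), other scalings, filters and left-out libraries were alternatives. The fits were tested on simulated data. Replicates are labelled as separate samples, and p values measure the spread between them. Apart from the replicate block, tests between or over both tissues treat ileal and colonic libraries as independent. Their p values could differ if both tissues came from the same mice. The members, the gene lists and the tests were chosen with earlier results of these data known. Named genes were the 8 members, Slc39a8, up to 3 genes per direction and vessel list called between tissues in control mice, and the 3 nearest to each profile, of which 1 is not reported here. Acta2 stands as a defining marker of its list, as do Csf1r and Chga. Angpt2, Rgs5, Pdgfrb, Cspg4, Abcc9, Kcnj8, Cdx1, Cd79a, Cd163 and the list genes called in KO mice alone were named after their values were seen.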

Additional observations from a re-analysis of the deposited data

How the results depend on the processing

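Counts of 8 to 84 for Cdh5 and 7 to 82 for Tek limit the precision of both. No member was called between genotypes under any of the alternatives run. The count of members called between tissues was 3 in control mice and ranged from 1 to 3 when single libraries were left out. It was 1 without colon control 2, where 28% of all genes were called. In KO mice it was 3 and ranged from 1 to 4 with single libraries left out. It was 1 without ileum KO 2, ileum KO 3 or colon KO 3, where 32.2%, 29.5% and 30.3% of all genes were called. At a threshold of 0.05 it was 1, beside 28.7% of all genes. It was 5 without ileum control 3 and ileum KO 1 together, beside 44% of all genes. DESeq2 without them, an alternative chosen after seeing the data, also called 5, beside 25% of the 27605 genes it tested. Same-numbered libraries deviated together in no comparison by the bar of a correlation over 0.1 in every pair, with -0.694 to 0.404 over all comparisons. In the tissue comparison of KO mice the 3 were 0.192, 0.0512 and 0.251, each above those with other numbers, a hint from the data that the labels do not bear on. With the replicate block 3 members were called in control mice and 4 in KO mice, Lyve1 being added. All genes were called at 32.2% and 33.6% there.

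Of 1229 values of single members under alternatives, 1138 kept direction and side of the threshold, 25 lost a call, 12 gained one and 54 turned direction. The causes were not tested. Kdr between genotypes over both tissues, -0.07, was 0.0402 with limma-voom, 0.0221 with the replicate block, 0.0748 without the ileal pair and 0.068 by DESeq2 without it. Plvap in ileum between genotypes, -0.36, was 0.0017 without the pair and 0.0243 by DESeq2. Plvap between tissues in KO mice, -0.01, was 0.23 with limma-voom, 0.13 with upper-quartile factors, 0.24 with library size only, 0.0231 without a filter, 0.68 without the pair and 0.64 by DESeq2. The Prox1 ratio to Cdh5 between genotypes, 0.06, was -0.004 without a pseudocount. Between tissues and without the pair, also an alternative added after seeing the data, the Plvap difference of the exact test, -0.33, was 0.23, the Lyve1 ratio to Cdh5, 0.23, was -0.11, and the Prox1 ratio, -0.03, was 0.11.

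With single libraries left out, these ranges crossed 0. Between genotypes over both tissues they were -0.0642 to 0.22 for Pecam1, -0.0723 to 0.39 for Cdh5 and -0.22 to 0.23 for Kdr. In ileum they were -0.46 to 0.0396 for Pecam1, -0.63 to 0.15 for Cdh5, -0.86 to 0.16 for Kdr, -1.07 to 0.70 for Plvap and -0.37 to 0.72 for Prox1, and in colon -0.0881 to 0.25 for Lyve1. The difference between tissues ran from -0.70 to 0.0734 for Tek, -0.28 to 0.0788 for Lyve1, -0.36 to 0.72 for Prox1 and -0.50 to 0.26 for Flt4. Between tissues the ranges were -0.37 to 0.41 for Cdh5, -0.42 to 0.68 for Kdr and -0.26 to 0.74 for Prox1 in control mice, and -0.41 to 0.68 for Plvap in KO mice.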
